A study of Arabidopsis thaliana with 12 samples.

Results

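Cytochrome P450 genes and tau-class glutathione transferase (GST) genes were followed in 9-day-old Arabidopsis thaliana seedlings. They were taken by name from the probe sets with a single annotated gene, as symbols with CYP, a number, a letter and a number, or with GSTU and a number. The rule gave 34 of 13286 named loci, each read by 1 probe set, of which 23 were P450s and 11 were tau GSTs. Of the P450s, 19 belong to the CYP71B subfamily, and the other 4 were CYP51G2, CYP78A9, CYP79A2 and CYP84A4. The tau GSTs were GSTU15, GSTU16, GSTU18, GSTU20, GSTU21, GSTU22, GSTU23, GSTU25, GSTU26, GSTU27 and GSTU28. The RefSeq gene table lists 236 P450 and 27 tau GST symbols, so the members are a small share of the P450 family and weighted towards CYP71B. CYP71B27 and CYP51G2 are listed there as transcribed pseudogenes. Names close to the rule but outside it were the cyclophilins CYP71 and CYP59, CYP718, and CYP79C2, CYP71B19 and CYP71B20, whose probe sets carry more than 1 gene.

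The series set out to find targets of LEAFY (LFY), the transcription factor that starts flower development. Of the groups, 4 carried LEAFY-GR, a fusion of LEAFY to the glucocorticoid receptor that dexamethasone activates. They received dexamethasone, cycloheximide (an inhibitor of protein synthesis), both agents together, or a mock treatment, each for 8 h. Untreated seedlings of the strain Landsberg erecta and untreated seedlings of a 35S::LFY line, in which a viral promoter drives LFY constitutively, made up the other groups. Each of the 6 groups had 2 arrays, 1 in lot batch 1 and 1 in lot batch 2. The promoter of LEAFY-GR, the number of independent lines and the contents of the mock treatment are not given in the sources used here, and no group without LEAFY-GR was treated. Nothing in the labels shows that the lots were grown separately, so the p-values reflect only how far these samples differed, and that spread may be technical.

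P450s are haem enzymes, most of them bound to the endoplasmic reticulum, that insert an oxygen atom into small molecules with electrons from a reductase. They build hormones, sterols, phenylpropanoids and glucosinolates, and they also oxidise foreign chemicals. Tau GSTs are plant-specific enzymes that join glutathione to reactive or foreign molecules, after which the conjugates can be moved into the vacuole, and many are known for their induction by herbicides, safeners and other chemicals. Both families grew largely by tandem duplication, so close relatives often lie side by side on a chromosome.

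The values are array signals, linear intensities that the authors had already scaled, and changes are differences of log2(signal + 10) given with standard errors. A probe set was called changed at a limma adjusted p under 0.05 over all 22746 probe sets tested. Array medians ran from 49.8 to 69.4, and replicate arrays correlated at 0.959 to 0.979. The green tissue markers LHCB4.1 (3267 to 8019 over the 12 arrays) and RCA (4905 to 8377) had high signals on every array. A further green marker, LHCB4.2, had 475.3 to 971.4 on the arrays with cycloheximide and 2529.9 to 3784.3 on the others. Whole seedlings were used, so fewer cells of a type and less RNA per cell cannot be told apart.

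Signals of the members ranged widely. The mean over the 12 arrays was under 10 for 6 members, from 10 to under 50 for 13, from 50 to under 200 for 9 and at least 200 for 6. The median of these means was 40.7, against 68.1 over all probe sets tested. GSTU25 (1353), GSTU20 (1159) and GSTU22 (1015) had the highest means, and CYP79A2 (1.46), CYP71B30P (3.59) and CYP71B21 (3.85) the lowest. Signals of different probe sets are not amounts of RNA that can be compared between genes. CYP79A2, which makes the oxime precursor of benzylglucosinolate, lay below 10 on all 12 arrays, and 19 members lay below 10 on none.

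**Figure D1:**
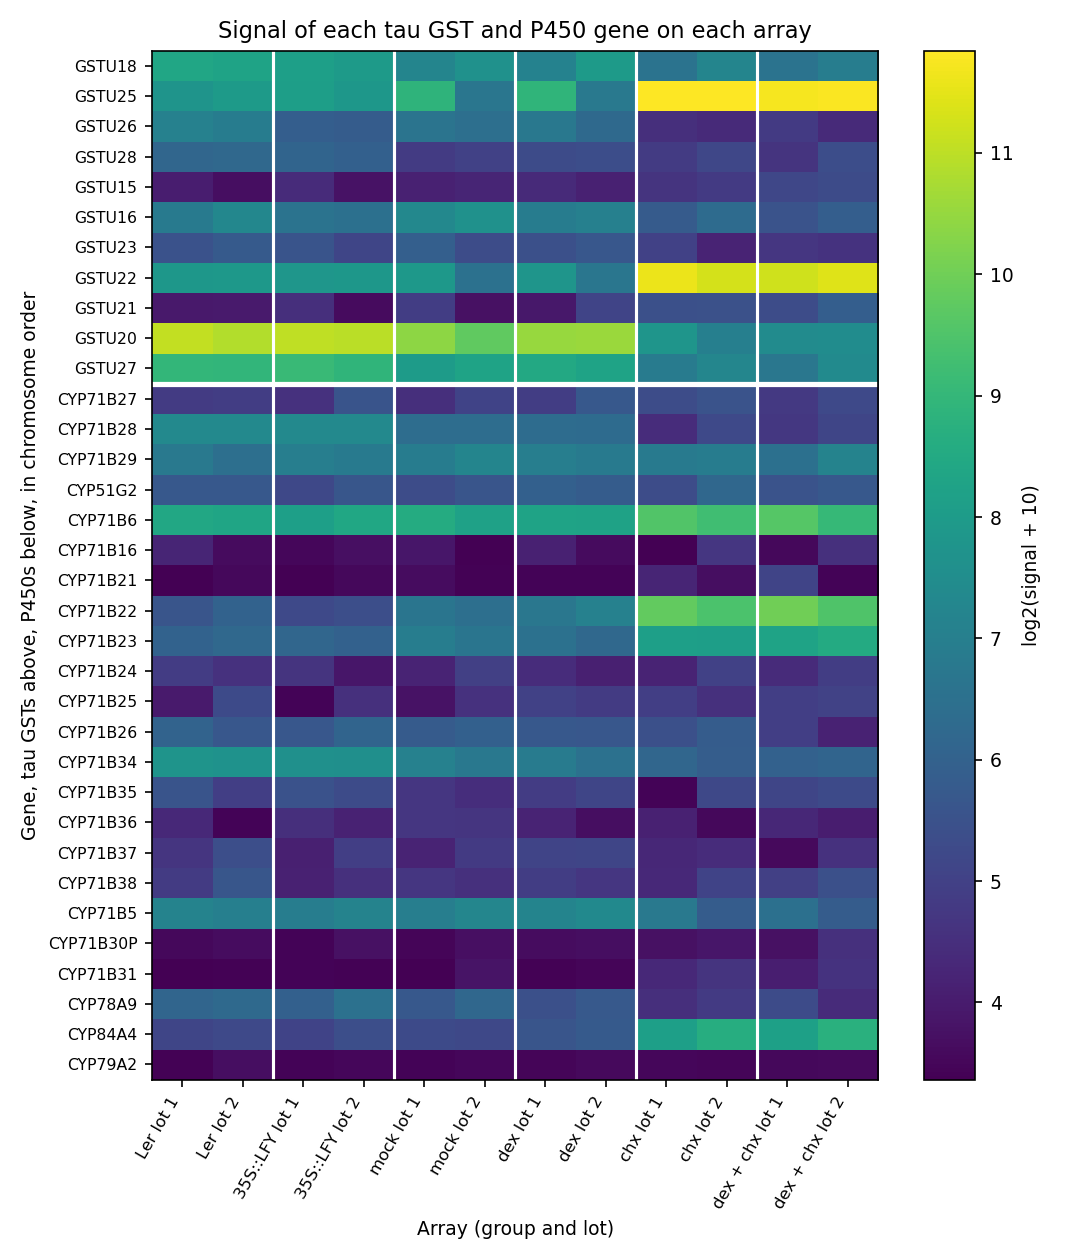
Heat map of log2(signal + 10) for the 34 members (rows) on each of the 12 arrays (columns, ordered by group and lot); the colour scale gives the value. The strongest contrast is between the 4 arrays with cycloheximide and the other 8, with GSTU22, GSTU25, CYP71B22 and CYP84A4 brighter and GSTU20 and GSTU26 dimmer under cycloheximide.

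Cycloheximide against mock asks what followed from blocking protein synthesis when LEAFY-GR was not activated. Tau GSTs moved in both directions, with GSTU22 and GSTU25 rising to mean signals 17.9 and 13.2 times those of mock, and GSTU20, GSTU26, GSTU16, GSTU27 and GSTU23 falling. Among the P450s, CYP84A4, CYP71B22, CYP71B23, CYP71B6 and CYP71B31 rose, and CYP71B28, CYP78A9, CYP71B34 and CYP71B5 fell. In all, 16 of the 34 members were called, 7 higher and 9 lower. This is 47.1% of the members beside 42.8% of all probe sets tested, a share near the background. By direction it is 20.6% beside 17.2% higher and 26.5% beside 25.6% lower. Among the 22 members with a mean signal of at least 20, 15 were called (68.2%). This share cannot be set beside the 42.8%, which includes dim probe sets. A filter on low signals, set slightly differently, kept 17241 of all probe sets, with 3533 called higher and 5896 lower. The median log2 change was 0.06 over the members and -0.03 over all probe sets. By family, 7 of 11 tau GSTs and 9 of 23 P450s were called, with median log2 changes of -0.54 and 0.11.

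GSTU22, a tau GST, had signals of 228.2 and 82.6 in mock (lots 1 and 2) and 3070 and 2485 with cycloheximide. Both cycloheximide arrays were far above both mock arrays. The log2 change was 4.22 ± 0.39 (limma adjusted p = 3.73e-06). GSTU25, one of the tau GSTs known to conjugate the explosive TNT, had 455.4 and 94 in mock and 3583.7 and 3661.1 with cycloheximide. The groups did not overlap, although the mock arrays differed between lots far more than the cycloheximide arrays did. Its log2 change was 4.05 ± 0.65 (limma adjusted p = 0.000331). The size depended on the mock array used, with 5.13 without mock replicate 1 and 2.96 without mock replicate 2. For GSTU22 the corresponding values were 4.90 and 3.54, and all of these passed. Among the 22746 probe sets, GSTU22 ranked 295 and GSTU25 ranked 336 from the highest change.

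GSTU20, which is known to bind the jasmonate-conjugating enzyme FIN219 in far-red light signalling, had the opposite change. Its signals were 1331.3 and 872.1 in mock and 208.4 and 119.1 with cycloheximide. The groups were well apart, with the mock mean 6.73 times the cycloheximide mean. Its log2 change was -2.70 ± 0.23 (limma adjusted p = 2.43e-06), the lowest of any member in this comparison and 317th from the lowest of all probe sets. GSTU26, a neighbour of GSTU25, had 89.9 and 77.2 in mock and 13 and 10.9 with cycloheximide, close to the pseudocount. Its groups did not overlap, and the log2 change was -2.09 ± 0.27 (limma adjusted p = 6.11e-05).

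Smaller falls were measured for 3 more tau GSTs. GSTU16 had 151 and 192.3 in mock and 45.8 and 70.6 with cycloheximide (log2 change -1.43 ± 0.25, limma adjusted p = 0.000573). GSTU27 had 249.9 and 298.9 against 109.7 and 144.3 (-1.06 ± 0.22, limma adjusted p = 0.00175). In both, each cycloheximide array lay below each mock array. GSTU23 was dimmer, with 51.7 and 30.4 in mock and 22.1 and 8.6 with cycloheximide (-1.03 ± 0.34, limma adjusted p = 0.0298). Its call was lost without mock replicate 1 (log2 change -0.73), without cycloheximide replicate 2 (-0.64) and with only the groups compared (limma adjusted p = 0.0982). The other 4 tau GSTs did not pass. GSTU21 changed from 20.1 and 3.5 to 33.5 and 33.8 (log2 change 1.11, adjusted p = 0.0811), GSTU15 by 0.52 (0.149), GSTU18 by -0.54 (0.16) and GSTU28 by 0.09 (0.854).

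**Figure D2:**
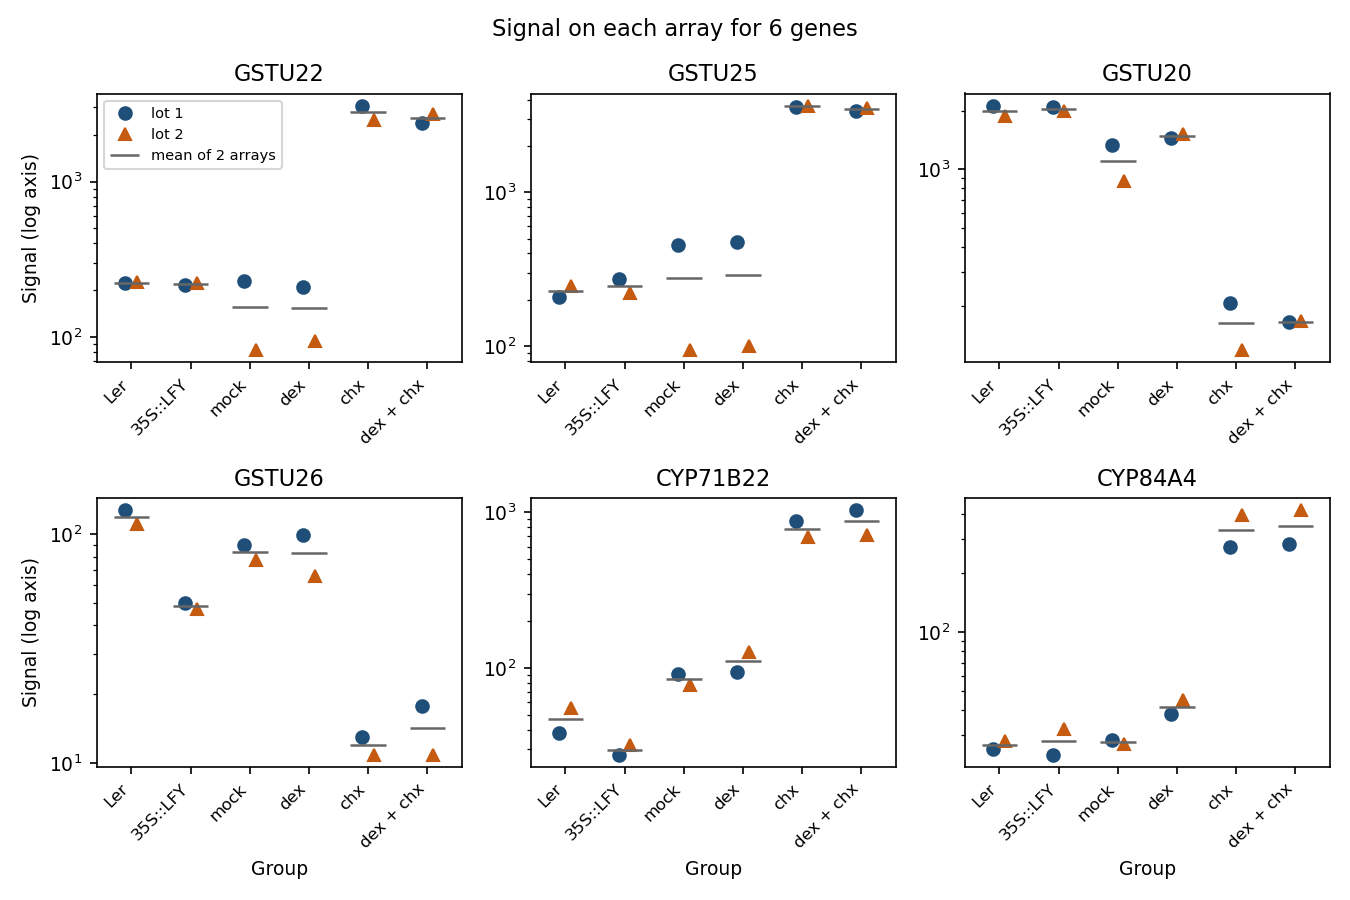
Signal (intensity, on a log axis) on each array for 4 tau GSTs and 2 P450s in the 6 groups (dex, dexamethasone; chx, cycloheximide; Ler, Landsberg erecta), with 1 point per array coloured by lot and a line at the mean of 2 arrays. GSTU22, GSTU25, CYP71B22 and CYP84A4 are high on all 4 cycloheximide arrays, GSTU20 and GSTU26 are low on them, and in mock and dexamethasone GSTU25 is several times higher in lot 1 than in lot 2.

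Of the P450s, CYP84A4, an enzyme of the synthesis of arabidopyrones from phenylpropanoids, had 28.3 and 26.9 in mock and 273.1 and 394.9 with cycloheximide. All cycloheximide values were far above mock, by 12.1 times in the means. Its log2 change was 3.17 ± 0.26 (limma adjusted p = 1.43e-06). CYP71B22 had 91.5 and 77.2 in mock and 876.7 and 690 with cycloheximide. The groups were again well apart, by 9.29 times in the means, and the log2 change of 3.07 ± 0.23 had the smallest adjusted p among the members (limma, 6.87e-07).

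CYP71B23, next to CYP71B22 among the members in gene order, had 113.4 and 92 in mock and 276.3 and 268.3 with cycloheximide (log2 change 1.33 ± 0.19, limma adjusted p = 0.000119). CYP71B6, which turns indole-3-acetonitrile into indole-3-carboxylic acid, had 369.6 and 284.3 in mock and 729.2 and 594.7 with cycloheximide (1.00 ± 0.20, limma adjusted p = 0.00161). In both genes the groups did not overlap. CYP71B31 passed at a low signal, with 0.5 and 4 in mock and 10.5 and 14.9 with cycloheximide (0.90 ± 0.23, limma adjusted p = 0.00719). The pseudocount sets most of its size, and the call was lost without mock replicate 1 (adjusted p = 0.0756).

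CYP71B28 had 74.9 and 73.6 in mock and 11.8 and 27.9 with cycloheximide, lower on both arrays (log2 change -1.55 ± 0.27, limma adjusted p = 0.000618). CYP71B34 had 126.3 and 97.1 in mock and 61.1 and 48.5 with cycloheximide, again without overlap (-0.91 ± 0.20, limma adjusted p = 0.00292). CYP78A9, of a family that promotes the growth of organs, fruits and seeds, had 42.4 and 62.7 in mock and 13 and 17.9 with cycloheximide (-1.28 ± 0.35, limma adjusted p = 0.0111). It did not pass without cycloheximide replicate 1 (adjusted p = 0.0578) or without mock replicate 2 (0.0938). CYP71B5 had 118.6 and 141.5 against 100.3 and 47.3 (-0.81 ± 0.30, limma adjusted p = 0.0475). Its fall lay mostly in lot 2, with log2 differences of -0.22 in lot 1 and -1.40 in lot 2. It was lost without mock replicate 1 (log2 change -0.93), mock replicate 2 (-0.69) or cycloheximide replicate 2 (-0.34). CYP71B5 was also lost with equal medians (limma adjusted p = 0.11), quantile normalization (0.126), no intensity trend (0.0642) and only the groups compared (0.102). CYP71B36 narrowly missed the threshold, with 16.3 and 15.7 against 7.7 and 1.6 (-0.86, adjusted p = 0.057), and passed with lot as a replicate block (0.0137).

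Dexamethasone with cycloheximide against dexamethasone gave the response to cycloheximide a second time, with LEAFY-GR activated, on 4 arrays that the first comparison did not use. Here 17 members were called, 8 higher and 9 lower. This is 50% of the members beside 40.6% of all probe sets, or by direction 23.5% beside 14.4% higher and 26.5% beside 26.2% lower. The median log2 change was 0.06 over the members and -0.17 over all probe sets. With arrays scaled to equal medians the median of all probe sets was -0.01, and the share of higher among all called probe sets was 47.6% in place of 35.5%. Called in both comparisons in the same direction were 14 members, 7 higher and 7 lower, which is 87.5% of the first 16 and 82.4% of these 17. No member was called in opposite directions, and 15 were called in neither. Both comparisons share the fitted spread of each probe set and the same lots, so their calls are not independent. Over all probe sets, 2923 were called higher in both (74.8% and 89.1% of the calls) and 4946 lower in both (85% and 83%).

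GSTU22 had 211.3 and 94.5 with dexamethasone and 2389.4 and 2730.7 with both agents (log2 change 4.08 ± 0.39, limma adjusted p = 5.38e-06). GSTU25 had 476.6 and 99.7 against 3401.1 and 3525.6 (3.91 ± 0.65, limma adjusted p = 0.000456). These match the first comparison closely in size, and lot 1 again lay above lot 2 in the group without cycloheximide. The change of GSTU25 was 4.98 without dexamethasone replicate 1 and 2.84 without dexamethasone replicate 2, and that of GSTU22 was 4.62 and 3.53, all passing. GSTU20 went from 1457.4 and 1514.5 to 164.8 and 167.5 (-3.09 ± 0.23, limma adjusted p = 8.98e-07). GSTU26 went from 99 and 66.1 to 17.7 and 10.9 (-1.92 ± 0.27, limma adjusted p = 0.000129). In both genes the lots agreed in direction and the groups did not overlap.

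CYP71B22 went from 94.8 and 125.9 to 1025.4 and 713.7 (log2 change 2.86 ± 0.23, limma adjusted p = 1.29e-06). CYP84A4 went from 38.1 and 44.9 to 281.3 and 418.5 (2.78 ± 0.26, limma adjusted p = 4.42e-06). CYP71B23 went from 81.6 and 65.4 to 300.2 and 365.5 (2.04 ± 0.19, limma adjusted p = 4.18e-06). All arrays with cycloheximide were higher in these 3 genes. CYP71B6 had 304.1 and 294.7 against 778.4 and 514.4 (1.06 ± 0.20, limma adjusted p = 0.00117), and CYP71B31 had 0.7 and 1.1 against 7 and 14.3 (0.90 ± 0.23, limma adjusted p = 0.00746). Leaving out replicate 2 of the group with both agents ended the call of CYP71B31 (adjusted p = 0.0719).

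Of the members that fell in both comparisons, GSTU27 had 348.8 and 301.5 with dexamethasone and 97 and 163.3 with both agents (log2 change -1.30 ± 0.22, limma adjusted p = 0.000443). CYP71B28 had 73.1 and 71.1 against 16.9 and 25.5 (-1.41 ± 0.27, limma adjusted p = 0.00131), and GSTU16 had 110.5 and 123.5 against 36.4 and 50 (-1.27 ± 0.25, limma adjusted p = 0.00145). None of these groups overlapped. CYP71B5 had 134.6 and 157 against 80.9 and 47.1 (-1.11 ± 0.30, limma adjusted p = 0.0109), and CYP71B34 had 108.3 and 81.8 against 54.4 and 58.6 (-0.65 ± 0.20, limma adjusted p = 0.0211). Both lost the call with arrays scaled to equal medians (limma adjusted p = 0.0732 for CYP71B5 and 0.164 for CYP71B34) and after quantile normalization (0.0625 and 0.131). CYP71B34 also lost it with only the groups compared (0.0946). CYP71B5 was also lost without dexamethasone replicate 2 (0.0677) or without replicate 2 of both agents (0.106). CYP71B34 was lost without dexamethasone replicate 1 (0.158), dexamethasone with cycloheximide replicate 1 (0.09) or replicate 2 (0.0531).

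CYP78A9 and GSTU23 passed only in the comparison without dexamethasone, while GSTU15, CYP71B26 and GSTU18 passed only in the comparison with it. GSTU15 had 10.6 and 7.8 with dexamethasone and 26.2 and 29.8 with both agents (log2 change 0.99 ± 0.27, limma adjusted p = 0.0116). CYP71B26 had 41.7 and 40.7 against 20.3 and 7.9 (-1.14 ± 0.33, limma adjusted p = 0.0153), and GSTU18 had 129.6 and 245.6 against 87 and 112.9 (-0.79 ± 0.29, limma adjusted p = 0.0454). Each lay apart from its control on both arrays, but none of these calls was stable. GSTU15 was lost without dexamethasone replicate 2 (log2 change 0.88), without replicate 2 of both agents (0.92) or with a pseudocount of 1 (limma adjusted p = 0.0656). CYP71B26 was lost without dexamethasone replicate 1 (log2 change -1.12) or 2 (-1.15), or without replicate 2 of both agents (-0.76). GSTU18 was lost without dexamethasone replicate 2 (log2 change -0.35), dexamethasone with cycloheximide replicate 1 (-0.62) or replicate 2 (-0.96). It was also lost with equal medians (limma adjusted p = 0.134), quantile normalization (0.136), a pseudocount of 50 (0.0528), no intensity trend (0.0736) and only the groups compared (0.0996). CYP78A9 in this comparison changed by -0.74 (adjusted p = 0.123) and GSTU23 by -0.92 (0.0521, and 0.0342 with lot as a replicate block). CYP71B37 changed by -1.03 (0.066, and 0.0135 with the block).

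The difference between the 2 cycloheximide responses was tested as an interaction among the LEAFY-GR groups. The same term asks whether the response to dexamethasone depended on cycloheximide. Limma called 0 of 34 members (0.0308% of all probe sets), also under every alternative setting, and 2 members had an unadjusted p under 0.05 (5.13% of all probe sets). So few probe sets of any kind were called that a count of 0 among the members says little. CYP71B23 had the smallest p, with a difference of 0.71 ± 0.27 (adjusted p = 0.932), followed by CYP71B36 (1.09, 0.972) and CYP71B26 (-0.89, 0.972). None of the members called in only 1 of the comparisons was therefore shown to differ between them.

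**Figure D3:**
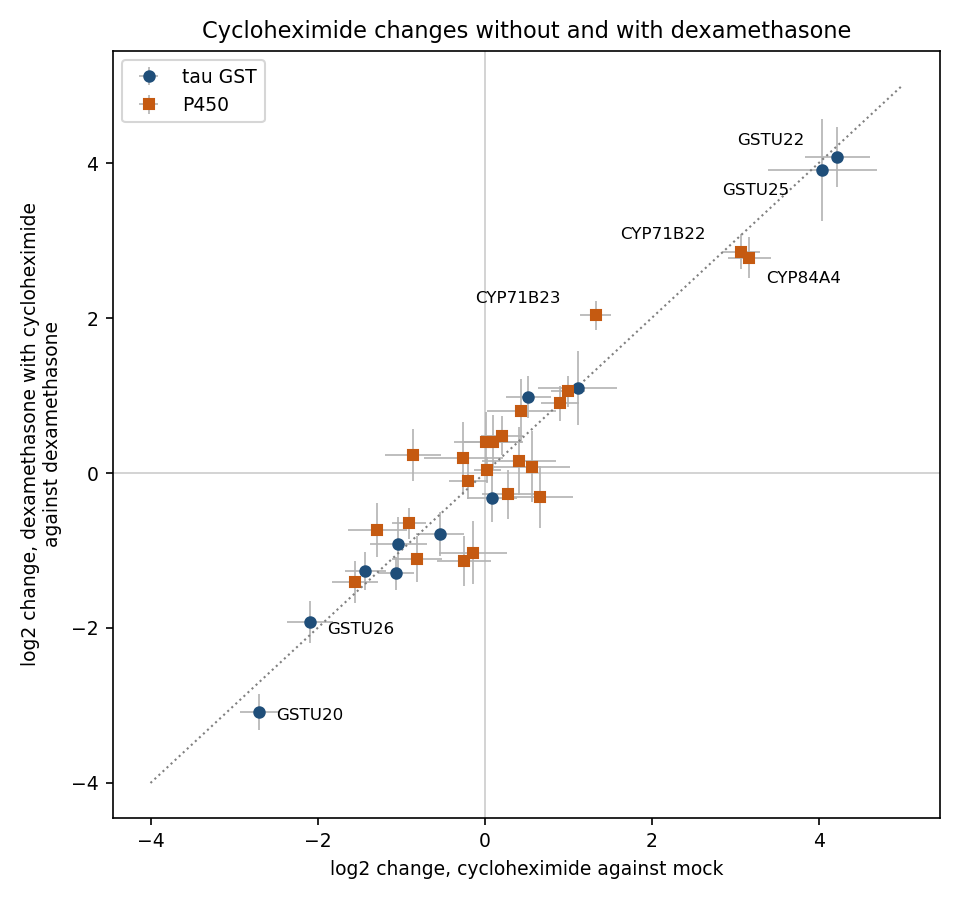
Log2 change with cycloheximide for each of the 34 members, without dexamethasone (horizontal axis, cycloheximide against mock) and with it (vertical axis, dexamethasone with cycloheximide against dexamethasone), coloured by family, with standard errors as bars and equality as a dotted line. Members called in both comparisons lie in the same quadrant in each case, from GSTU20 (-2.70 and -3.09) to GSTU22 (4.22 and 4.08).

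Taking the cycloheximide arrays together, all 4 lay above all 4 of mock and dexamethasone for 10 members (29.4% beside 17.8% of all probe sets) and below them for 9 (26.5% beside 28.9%). The same arrays gave both cycloheximide comparisons, so this adds no separate evidence. The 10 include the dim CYP71B30P and CYP71B31, which lay below 10 on 11 and 9 of the 12 arrays.

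The other 15 members were called in neither comparison. They were GSTU21, GSTU28, CYP51G2, CYP79A2 and 11 CYP71B genes. Their log2 changes ran from -0.86 (CYP71B36) to 1.11 (GSTU21) against mock and from -1.03 (CYP71B37) against dexamethasone, where GSTU21 was again the highest, with mean signals of 39.6 and 14.65 (adjusted p = 0.0888). CYP71B29, among the brighter of them, had mean signals of 107.3 with cycloheximide and 124.95 in mock (log2 change -0.20 ± 0.23, limma adjusted p = 0.554).

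In 4 runs of neighbouring members, genes called higher and genes called lower against mock occurred together. Over all probe sets, 17.2% were called higher and 25.6% lower in that comparison. How often other runs of genes hold both directions was not tested. In RefSeq gene order, 25 members fell into 6 runs in which consecutive members were at most 10 genes apart. The other 9 members lay alone, among them the called GSTU27, CYP71B6, CYP78A9 and CYP84A4. On chromosome 1, GSTU25 rose and its neighbour GSTU26 fell in both comparisons. In the run GSTU23, GSTU22, GSTU21 and GSTU20 on chromosome 1, GSTU22 rose and GSTU20 fell in both comparisons, GSTU23 fell against mock only, and GSTU21 did not pass. Of 11 CYP71B genes in a run on chromosome 3, CYP71B22 and CYP71B23 rose in both comparisons, CYP71B34 fell, and 7 passed in neither. In the run CYP71B27, CYP71B28 and CYP71B29 on chromosome 1 CYP71B28 was called and the other two were not, and in CYP71B5, CYP71B30P and CYP71B31 on chromosome 3 the outer genes moved in opposite directions. Whether any probe set also reads a close neighbour was not tested.

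**Figure D4:**
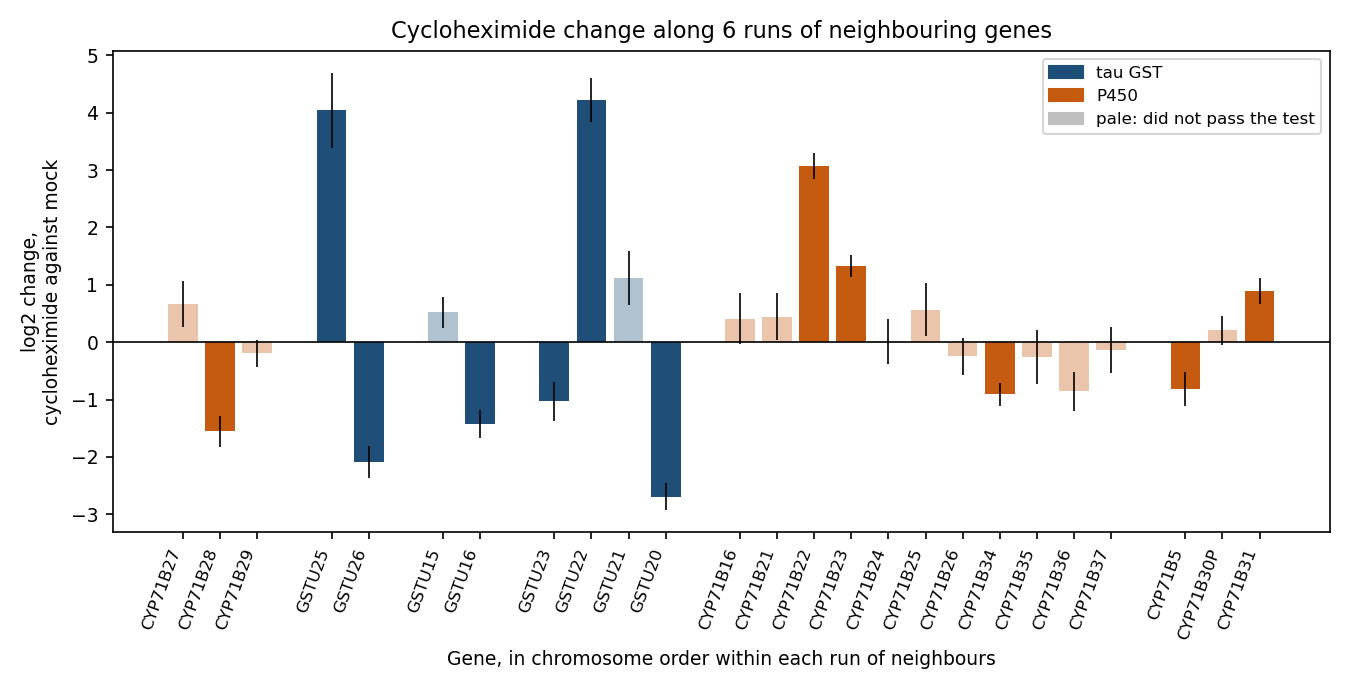
Log2 change, cycloheximide against mock, as bars with standard errors (blue tau GSTs, orange P450s, pale where the test was not passed), for the 25 members that lie in runs of neighbours, in gene order within each of the 6 runs. GSTU25 (4.05) stands beside GSTU26 (-2.09), and GSTU22 (4.22) lies in the same run as GSTU20 (-2.70).

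Genes that work with these enzymes were taken from lists of electron donors of P450s, glutathione synthesis and reduction, other GST classes, vacuolar transport, and the response to chemicals and electrophiles. The arrays named 7 of their genes, 2 for glutathione reduction, 2 other GSTs and 3 of the chemical response, and none of the 11 electron donors or 14 transporters. Against mock, cycloheximide lowered 3 and raised 1, beside 25.6% lower and 17.2% higher of all probe sets. The lambda GST gene GSTL3 fell from 706.3 and 737.6 to 321.5 and 272.2 (log2 change -1.26 ± 0.13, limma adjusted p = 1.19e-05). AER, an alkenal reductase that removes reactive aldehydes, fell from 2417.8 and 1992.8 to 941.9 and 535.9 (-1.61 ± 0.27, limma adjusted p = 0.000428). The glycosyltransferase gene UGT73B5 rose from 512.8 and 171.4 to 1520.1 and 1365.5 (2.24 ± 0.59, limma adjusted p = 0.00875). GR, here the organellar glutathione reductase gene and not the receptor, fell by 0.82 (limma adjusted p = 0.0128). UGT73B5 was lost without mock replicate 2 (adjusted p = 0.0991), as was GR (0.0951), which was also lost without cycloheximide replicate 1 (0.108). With dexamethasone present the same 4 genes passed in the same directions, GSTL3 at -0.88, AER at -1.21, UGT73B5 at 2.70 and GR at -0.97. There GR was lost without dexamethasone replicate 2 (0.0595) or replicate 1 of both agents (0.0534).

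Some markers of cell types and some signs of RNA quality also moved with cycloheximide. Against mock, 2 of 3 green tissue markers, 1 of 3 root markers, 1 of 3 stomatal markers and 0 of 3 floral markers fell (LHCB4.2, LHCB4.1, EXPA18 and SPCH), and none rose. Over all probe sets, 25.6% were called lower and 17.2% higher in that comparison. The summed signal was 9286 to 10430 with cycloheximide and 13610 to 19580 in mock for the green markers, 65.5 to 100.9 and 106.2 to 136.7 for root, 61.6 to 73.4 and 136 to 186.3 for stomata, and 8.3 to 22.4 and 20.7 to 33.8 for floral organs. No marker was listed at 0.

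SPCH, a regulator that starts the stomatal lineage, went from 64.8 and 77.9 in mock to 6.9 and 6.2 (log2 change -2.29, limma adjusted p = 0.00011). LHCB4.2 changed by -2.36 (limma adjusted p = 2.61e-05), LHCB4.1 by -0.87 (0.00874) and EXPA18 by -0.99 (0.019). LHCB4.1 was lost without mock replicate 2 (adjusted p = 0.079), as was EXPA18 (0.177), which was also lost without cycloheximide replicate 1 (0.134). With dexamethasone present, SPCH (-1.95, limma adjusted p = 0.000415), LHCB4.2 (-2.02, 9.61e-05) and JAG from the floral list (-1.02, 0.038) fell. JAG was dim, with 16.9 and 28.7 with dexamethasone and 2.9 and 9.5 with both agents, the latter below the pseudocount. LHCB4.1 (-0.57, 0.0692) and EXPA18 (-0.63, 0.12) did not pass there. JAG was lost without dexamethasone replicate 2 (adjusted p = 0.221), without replicate 1 of both agents (0.241), with equal medians (0.0523) and with a pseudocount of 1 (0.0809). A fit of only the groups compared ended the calls of LHCB4.1 (0.107), EXPA18 (0.0894) and JAG (0.0538).

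The arrays carry an older and a newer set of control probe sets for GAPDH, actin and ubiquitin, which gave 6 ratios of 3′ over 5′ signal. Against mock, 2 of the 6 were lower with cycloheximide in both lots and 4 differed in direction between lots. The older sets gave the lower ones, for GAPDH (1.28 beside 1.52, and 1.09 beside 1.36) and actin (4.67 beside 7.69, and 2.39 beside 5.88). The newer sets gave 1.03 beside 1.12 and 1.04 beside 0.974 for GAPDH. Of both agents against dexamethasone, 3 ratios were lower in both lots (GAPDH in both sets and actin in the older set), 1 was higher (ubiquitin in the newer set) and 2 were mixed. The part of the marker shifts and of RNA quality in the changes of the members was not tested.

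The 3 comparisons that address LEAFY gave no call among the members. For dexamethasone against mock, limma called 0 of 34 (0.475% of all probe sets), with an unadjusted p under 0.05 for 2 members (7.61% of all). For dexamethasone with cycloheximide against cycloheximide it called 0 of 34 (0.193% of all), with 1 member under 0.05 (6.16%). For 35S::LFY against Landsberg erecta it called 0 of 34 (0.295% of all), with 2 under 0.05 (5.98%). The counts were 0 under every alternative setting. With so few calls over all probe sets, 0 of 34 was the likely outcome and says little. With only the groups compared, the calls higher and lower over all probe sets were 1 and 0, 2 and 0, and 78 and 78. The 95% intervals of all 34 members lay within 2 log2 units of 0 in each comparison. They lay within 1 log2 unit for 20 members after dexamethasone alone, 23 with cycloheximide present and 21 in 35S::LFY, so for the other members the interval holds changes above 2-fold on this scale.

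The smallest p after dexamethasone alone belonged to CYP71B23, with 113.4 and 92 in mock and 81.6 and 65.4 with dexamethasone (log2 change -0.43 ± 0.19, limma adjusted p = 0.626). CYP71B36 went from 16.3 and 15.7 to 8.5 and 2.8 (-0.76 ± 0.33, limma adjusted p = 0.632), and GSTU16 from 151 and 192.3 to 110.5 and 123.5 (-0.51 ± 0.25, limma adjusted p = 0.699). Both dexamethasone arrays were lower than both mock arrays in each of these genes, but none passed. With cycloheximide present, CYP71B26 had 33.5 and 47.5 without dexamethasone and 20.3 and 7.9 with it (-1.10 ± 0.33, limma adjusted p = 0.425). GSTU15 had 14.8 and 17.7 against 26.2 and 29.8 (0.53 ± 0.27, limma adjusted p = 0.884). CYP71B35 had 0.9 and 27.1 against 24.8 and 28.7 (0.87, limma adjusted p = 0.923), a value that rested on the array at 0.9 and became -0.02 without cycloheximide replicate 1. The groups of CYP71B26 and GSTU15 did not overlap, and those of CYP71B35 did.

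In 35S::LFY the member with the smallest p was GSTU26, with 50.2 and 47.2 against 127.5 and 111.1 in Landsberg erecta. The 4 values did not overlap, and the log2 change was -1.14 ± 0.27 (unadjusted p = 0.00143, limma adjusted p = 0.193), with a 95% interval of -1.73 to -0.54. After dexamethasone GSTU26 had 99 and 66.1 against 89.9 and 77.2 in mock, values that overlap. CYP71B38 had 7.6 and 13.4 in 35S::LFY and 18.4 and 39.4 in Landsberg erecta (-0.88 ± 0.36, limma adjusted p = 0.727), and CYP71B22 had 27.8 and 31.8 against 38.4 and 55.1 (-0.50 ± 0.23, limma adjusted p = 0.839). Both were lower in 35S::LFY on both arrays without passing. GSTU22, with the largest cycloheximide change against mock, had 214.6 and 222.4 in 35S::LFY and 222.9 and 225 in Landsberg erecta, with an interval of -0.89 to 0.82 for the log2 change between these lines. None of the 7 partner genes was called in any of the 3 comparisons.

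**Figure D5:**
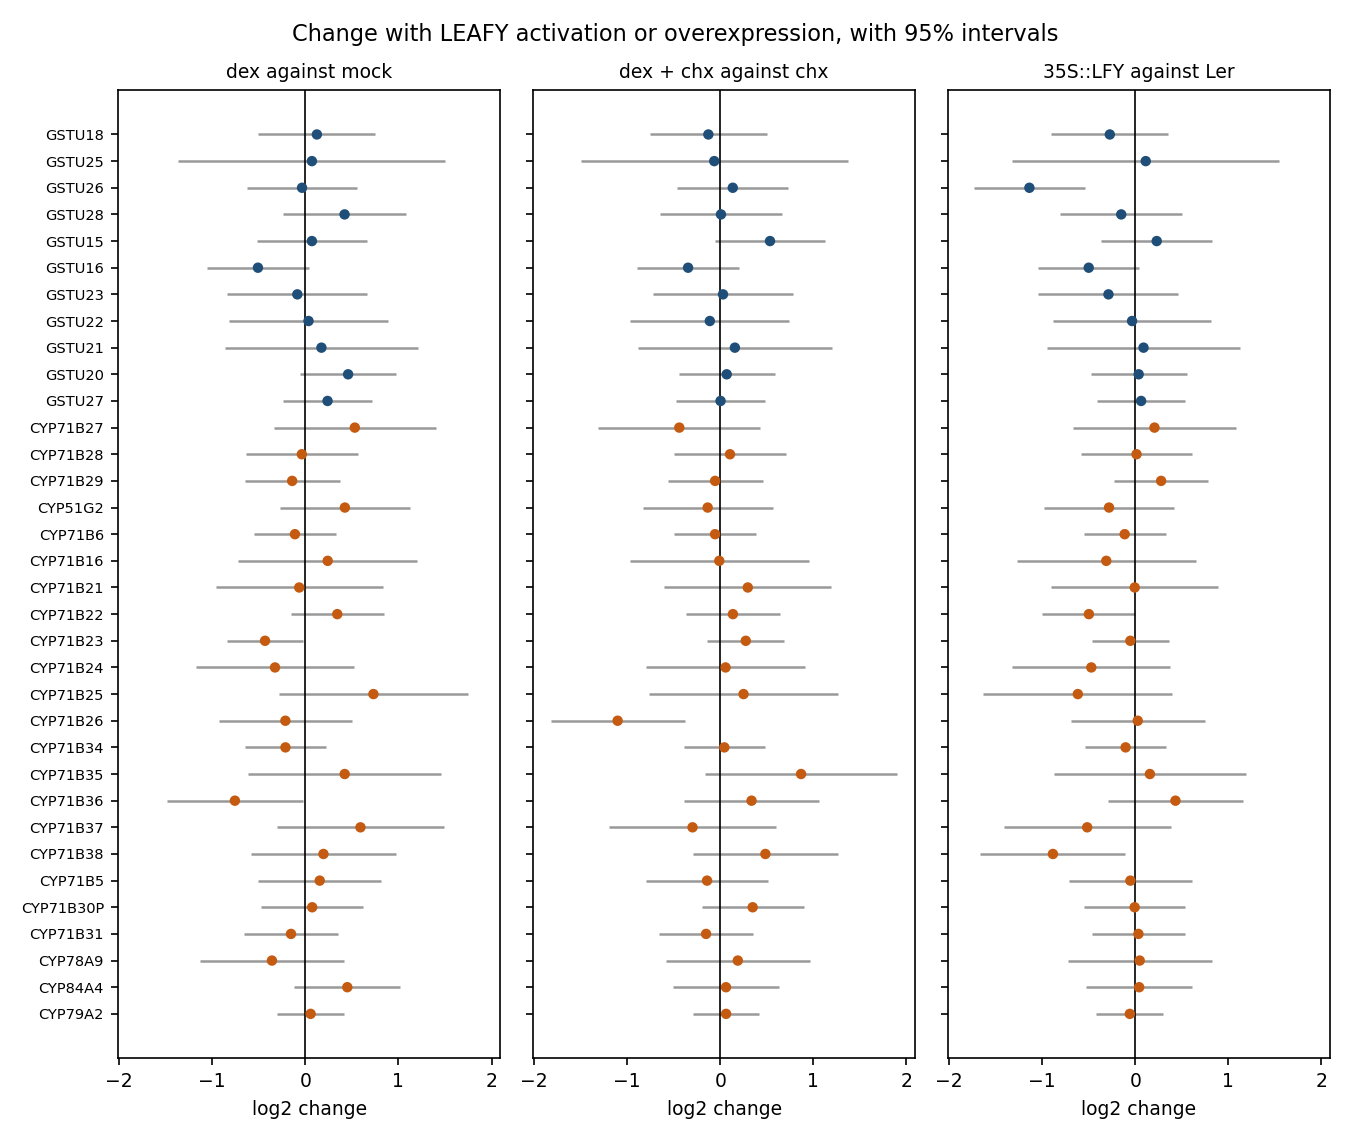
Log2 change with its 95% interval for each of the 34 members in the 3 LEAFY comparisons, in panels for dexamethasone alone (dex against mock), for dexamethasone on top of cycloheximide (dex + chx against chx) and for 35S::LFY against Landsberg erecta (Ler). No member was called, and the interval ends run from -1.49 to 1.74, from -1.82 to 1.90 and from -1.73 to 1.55.

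Mock-treated LEAFY-GR and untreated Landsberg erecta are the control groups, and between them genotype and mock treatment cannot be told apart. Limma called 5 of 34 members, 1 higher and 4 lower in mock, which is 14.7% beside 7.82% of all probe sets. By direction it is 2.94% beside 4% higher and 11.8% beside 3.82% lower. The medians of the members and of all probe sets were both -0.09. GSTU28 had 18.6 and 21.8 in mock and 61.4 and 64.4 in Landsberg erecta (log2 change -1.27 ± 0.30, limma adjusted p = 0.0236). GSTU20 had 1331.3 and 872.1 against 2119.9 and 1871.1 (-0.88 ± 0.23, limma adjusted p = 0.0431). GSTU27 had 249.9 and 298.9 against 491.3 and 477.2 (-0.80 ± 0.22, limma adjusted p = 0.0445). These 3 tau GSTs were lower on both mock arrays. The P450 gene CYP71B34 had 126.3 and 97.1 against 203.2 and 197.1 (-0.80 ± 0.20, limma adjusted p = 0.0319). CYP71B23 was higher in mock, with 113.4 and 92 against 54.8 and 65.1 (0.69 ± 0.19, limma adjusted p = 0.0484).

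The calls between these control groups were not stable. GSTU28 (adjusted p from 0.0852 to 0.14), GSTU27 (0.0862 to 0.212) and CYP71B23 (0.0752 to 0.252) were lost whichever of the 4 arrays was left out. GSTU20 was lost without mock replicate 2 (0.286), Landsberg erecta replicate 1 (0.222) or replicate 2 (0.141), and CYP71B34 without the same arrays (0.211, 0.169 and 0.154). With arrays scaled to equal medians the median of all probe sets was 0.04, higher calls made up 73.8% of all calls in place of 51.2%, and only GSTU28 of the 4 lower members passed. With lot as a replicate block 2 more members passed, CYP71B28 (-0.96, adjusted p = 0.0364, from 0.0568) and GSTU18 (-0.91, 0.0367, from 0.085). Of the 6 ratios of 3′ over 5′ control signal, 5 were lower in mock than in Landsberg erecta in both lots, among them GAPDH (1.12 beside 1.27 and 0.974 beside 1.3 in the newer set). For actin the newer set was lower in both lots (1.75 beside 1.98, and 1.63 beside 2.25), while the older set was lower in lot 1 (7.69 beside 9.02) and higher in lot 2 (5.88 beside 4.33). Of the 12 tissue markers only the stomatal gene MUTE was called (log2 change -1.15, limma adjusted p = 0.00692), beside 3.82% of all probe sets called lower. MUTE was dim, with 3.1 and 1.7 in mock and 15.9 and 19.2 in Landsberg erecta, so the pseudocount sets much of the size. Its call was lost without mock replicate 2 (log2 change -1.07) or Landsberg erecta replicate 2 (-1.06). The part of markers or RNA quality in these differences was not tested.

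The 5 called genes were among the members whose signals set both untreated groups apart from both mock and dexamethasone. This is partly built in, since the mock and Landsberg erecta arrays that gave the calls are used again. All 4 arrays of 35S::LFY and Landsberg erecta lay above all 4 of mock and dexamethasone for CYP71B28, GSTU28, GSTU20, CYP71B34 and GSTU27, which is 14.7% of the members beside 13% of all probe sets. They lay below them for CYP71B22 and CYP71B23, or 5.88% beside 9.1%. CYP71B28 was the most even of them, with 155.2 and 154.7 in 35S::LFY, 153.7 and 153 in Landsberg erecta, 74.9 and 73.6 in mock and 73.1 and 71.1 with dexamethasone. GSTU22 and GSTU25 were not called between the control groups, at -0.66 (adjusted p = 0.404) and -0.10 (0.969).

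Of 22 entries listed for the chemical response, the 3 that could be read had larger log2 differences between the control groups than any member. Over all probe sets, 4% were called higher in mock. UGT73C1, a glycosyltransferase gene, had 305.5 and 97.4 in mock and 1.2 and 1.3 in Landsberg erecta (log2 change 4.03 ± 0.46, limma adjusted p = 0.000258). AER had 2417.8 and 1992.8 against 372.7 and 311.7 (2.65 ± 0.27, limma adjusted p = 0.000117), and UGT73B5 had 512.8 and 171.4 against 34.6 and 31.9 (2.83 ± 0.59, limma adjusted p = 0.0121). All mock arrays were far above Landsberg erecta, and 35S::LFY had 4.9 and 1.1 for UGT73C1. GR1, the cytosolic glutathione reductase gene, was higher in mock by 0.65 (limma adjusted p = 0.0426). The partner genes GSTL3 (-0.38, limma adjusted p = 0.124), GSTF4 (0.12, 0.887) and GR (0.10, 0.879) were not called. UGT73C1 and AER passed whichever array was left out. UGT73B5 was lost without mock replicate 1 (adjusted p = 0.104) or Landsberg erecta replicate 1 (0.0706) or 2 (0.0887), and GR1 without mock replicate 1 (0.257) or Landsberg erecta replicate 2 (0.338). GR1 was also lost with equal medians (0.053), after quantile normalization (0.0527), without the intensity trend (0.111) and with only the groups compared (0.117).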

How the data were processed

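RNA from 12 samples was measured on Affymetrix ATH1 arrays. The authors deposited 1 linear intensity per probe set and array, with no detection calls; the software behind it was not given in the sources used here. These deposited values were already scaled, with a mean after trimming 2% from each end of 150.01 to 150.02 on every array, and were used as they are. Names came from the array's annotation and the RefSeq gene table (TAIR10.1, names and gene order only), and 13436 probe sets matched 1 locus. After leaving out 64 control probe sets, limma 3.58.1 (R 4.3.3) fitted 1 mean per group to log2(intensity + 10) over all 12 arrays, with 6 residual and 5.34 prior degrees of freedom and an intensity trend. P-values were adjusted by Benjamini-Hochberg over 22746 probe sets. The script was tested on simulated data. Python 3.11.15, pandas 2.3.3, numpy 2.4.6 and matplotlib 3.10.9 were used for annotation and plots.

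The members and lists were chosen with earlier results of these data known. The rule for naming genes gave values on every array for members called in a comparison, or the 3 smallest p-values where fewer than 3 were called, the 3 highest and 3 lowest mean levels, and partner genes by counts. Values of all called partner genes, and those of uncalled members beyond the 3, go beyond the rule. The lot, which is also the replicate number, pairs the arrays because the labels state it as a batch. Deviations from the group means correlated between arrays of the same lot at 0.0488 to 0.334 (median 0.144, 12 of 15 pairs over 0.1). Alternatives were the pseudocount, 2 other scalings, a filter on low signals, lot as a block, no intensity trend, only the groups compared, and each array left out. The number of arrays limits the precision.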

Additional observations from a re-analysis of the deposited data

How the results depend on the processing

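The counts of members called in the 3 LEAFY comparisons and in the interaction were 0 under all 8 settings. Few probe sets of any kind were called in these comparisons, so a count of 0 among 34 members says little. Against mock, cycloheximide called 6 to 7 members higher and 7 to 10 lower over the settings, and 7 higher and 7 to 9 lower with 1 array left out. With dexamethasone present the ranges were 6 to 9 and 6 to 11, and 7 to 9 and 6 to 10 with 1 array left out. For mock against Landsberg erecta the 1 higher call became 0 with a pseudocount of 50, without the intensity trend and with only the groups compared, and 2 after quantile normalization. It ranged from 0 to 1 with 1 array left out. The 4 lower calls became 1 with equal medians and 2 without the intensity trend, and ranged from 0 to 5 with 1 array left out. The cause of these shifts was not tested. With lot as a replicate block 10 members were called lower against mock, 11 in the comparison with dexamethasone present and 6 for mock against Landsberg erecta. Of the calls that differ, 5 were gained and none lost, and higher calls stayed at 7, 8 and 1. GSTU22, GSTU25, GSTU20, GSTU26, GSTU16, GSTU27, CYP71B22, CYP71B23, CYP84A4, CYP71B6 and CYP71B28 passed in both cycloheximide comparisons under all settings and with each of the 4 arrays left out. Over all named members, 26 values missed the threshold under another setting while 367 kept direction and side, and with 1 array left out 40 missed it, 171 kept both and 1 turned, CYP71B35 in dexamethasone with cycloheximide against cycloheximide (-0.016 without cycloheximide replicate 1, 1.75 without cycloheximide replicate 2). Scaling to equal medians changed the share of higher among all called probe sets from 45.4% to 30.2% after dexamethasone alone, from 70.5% to 87.1% with cycloheximide present and from 58.2% to 73.5% in 35S::LFY. The filter left 22 of 34 members. Averaging several probe sets per locus and leaving out probe sets that read several transcripts were not run, since each member has 1 probe set of the plain type. The same settings for partner and marker genes were added after seeing the data. Without detection calls, dim members cannot be told from background.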

Other observations

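GSTU25 and GSTU22 had more signal in lot 1 than in lot 2 in the mock and dexamethasone groups. Some dimmer members had larger lot ratios there, such as GSTU21 (5.74 in mock and 0.211 with dexamethasone) and CYP71B16 (12 in mock). The ratio of the lot 1 to the lot 2 signal of GSTU25 was 4.84 in mock and 4.78 with dexamethasone, 0.979 with cycloheximide, 0.965 with both agents, 1.22 in 35S::LFY and 0.844 in Landsberg erecta. For GSTU22 the ratios were 2.76 and 2.24 in mock and dexamethasone, 1.24 and 0.875 with cycloheximide, and 0.965 and 0.991 in the untreated lines. UGT73B5 also had more signal in lot 1, with 512.8 against 171.4 in mock and 557.9 against 110.5 with dexamethasone, beside 46.2 against 54.7 in 35S::LFY. UGT73C1 had 305.5 against 97.4 in mock and 235.8 against 108.7 with dexamethasone. With 1 array per lot and group these differences have no replicate, and they were noticed after the values were seen.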
